A study of Mus musculus with 12 samples.

Results

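The clustered protocadherins are 3 neighbouring gene arrays, Pcdha, Pcdhb and Pcdhg, on mouse chromosome 18. Their H3K9me3 was examined in mouse embryonic stem cells, as the 42 regions of the authors' deposited table (68291 regions in all) that start between 36.9 and 37.95 Mb on that chromosome (mm10). The choice used position alone and no measured value. The 1 Mb on either side, with 23 regions upstream and 15 downstream, served as flanks. The RefSeq table of assembly GRCm38.p6 places 58 clustered protocadherin genes in this window, 14 alpha, 22 beta and 22 gamma, of which 57 are protein-coding and 1, Pcdhgb8, is a transcribed pseudogene.

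Protocadherins are cell-surface adhesion proteins that bind like to like between cells. Neurons choose single alpha and gamma isoforms from alternative first exons, each with a promoter of its own, which are spliced to exons shared by the whole array, whereas beta genes are single-exon genes without shared exons. The combination chosen gives a neuron an identity by which its branches avoid one another. The C-type isoforms at the far end of the alpha and gamma arrays are expressed more uniformly. CTCF and cohesin loop promoters to distant enhancers, and DNA methylation and H3K9 trimethylation, a mark of silent chromatin, are known to act on the locus.

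The study compared Tex19.1+/- and Tex19.1-/- cells, so that the controls also lack 1 intact copy of Tex19.1, a gene of germ cells and pluripotent cells. Per the labels, all cells derive from the parental E14Tg2a line on a 129/Ola background and were used at passages 12 to 20, with 3 immunoprecipitated and 3 input libraries for either genotype. The number of clones, and whether the replicate libraries stem from separate cultures, is not given in the sources used here. In 6 of the 12 libraries, 3 of them immunoprecipitated, the labelled genotype goes against the title, and genotypes here follow the titles. The table holds 1 comparison of the genotypes with no values of single libraries, and the reference genotype is not stated, so a change is given by its sign only. The table measures no expression, so the labelled cell type could not be checked against its markers. Signal is the average CPM (reads in a region scaled to library size, averaged over libraries), from the deposited log2 CPM. Errors of fold changes are standard errors derived from the authors' p-values. For 26 of the 42 regions, whose p gave a normal deviate under 1, the median error of regions of like signal was used instead. These errors carry the assumptions of the authors' test and may leave out variation between libraries.

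H3K9me3 was unevenly spread over the arrays. The 42 regions covered 4.93% of the window and summed to 805 CPM. The window had 40.0 regions per Mb, against 23.0 in the upstream and 15.0 in the downstream flank. The covered share was 7.14% upstream and 1.64% downstream. Signal per kb of sequence was 0.767 CPM in the window, 1.22 upstream and 0.200 downstream. Among 2497 windows of the same length laid end to end over the other chromosomes, the median held 23 regions and 325 CPM, and 15.1% held at least as many regions, while 89.0% held less signal. The locus was therefore above the middle of the genome in H3K9me3, but below the flank on its left in covered sequence and in signal per kb.

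**Figure D1:**
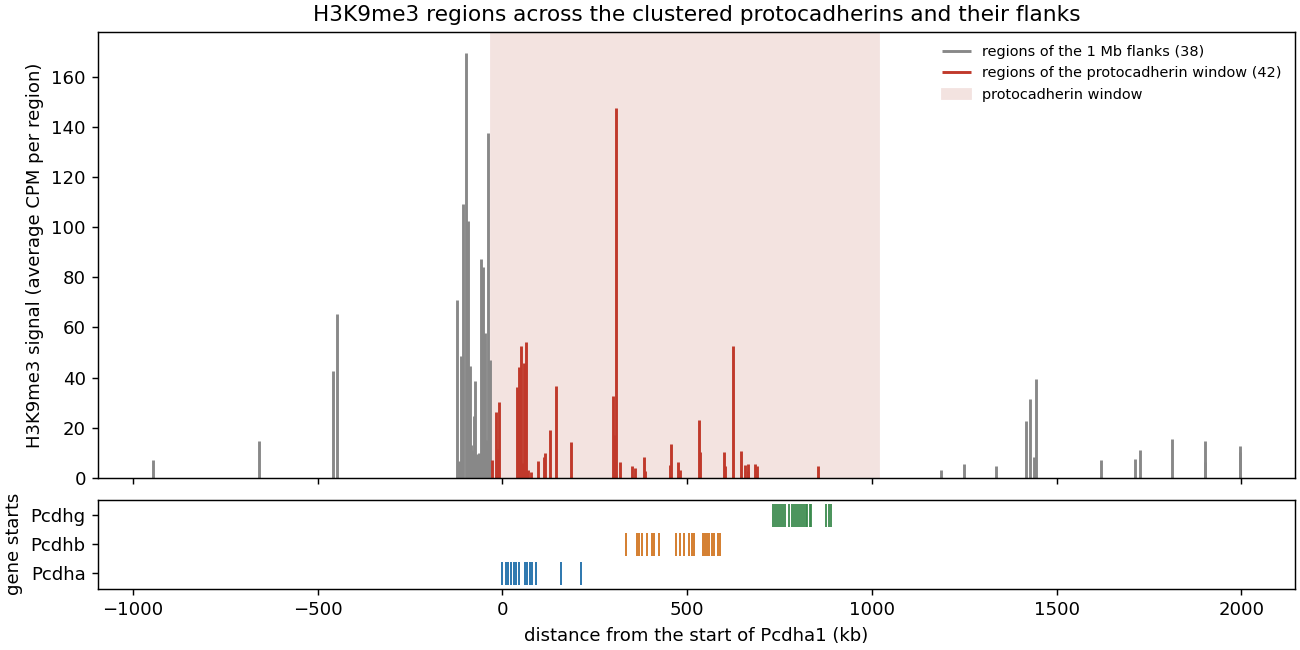
Average signal of each region in CPM (vertical lines, upper panel) against distance from the start of Pcdha1 in kb, with regions of the window in red and of the flanks in grey; ticks in the lower panel mark gene starts. Signal is high just before Pcdha1, in the middle of the alpha starts and between the alpha and beta arrays, and 1 weak region lies among the gamma starts.

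The share of sequence covered was highest in the short stretch before Pcdha1, followed by the interval between alpha and beta and the alpha array. From the first alpha start to the last alpha end (36930285 to 37188897) there were 14 regions over 259 kb, which covered 7.51% of the sequence with 339 CPM, or 42.1% of the signal of the window. The 76.1 kb between the alpha and beta arrays had 4 regions that covered 16.1% with 204 CPM. The 30.3 kb before Pcdha1 had 4 regions that covered 19.9% with 75.3 CPM. In the beta array 10 regions covered 2.54% of 256 kb with 80.6 CPM. The interval between beta and gamma had 9 regions (4.99%) with 102 CPM, so that by summed signal both exceeded the stretch before Pcdha1. The gamma array, 180 kb long with 22 gene starts, had 1 region of 484 bp (0.269%), and the rest of the window beyond it, where Diaph1 and Hdac3 lie, had 0.

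**Figure D2:**
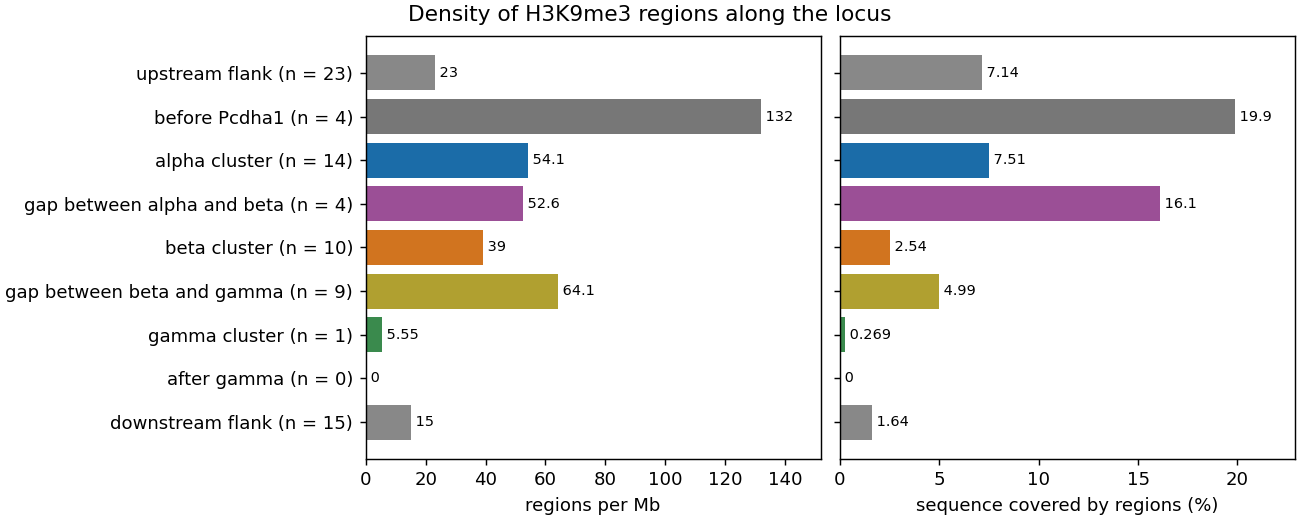
Regions per Mb (left) and share of sequence covered in percent (right) for the flanks and the parts of the window, with the number of regions in brackets. Coverage reaches 19.9% before Pcdha1 and 16.1% between alpha and beta, and is 0.269% in the gamma array.

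The left edge of the window cut through a larger block. Between the end of Zmat2, a zinc finger gene, and the start of Pcdha1 lie 131 kb with 23 regions that together covered 52.7% of the sequence, 19 of them before the edge and 4 inside it. The last region before the edge (36894863 to 36898834) had 47.1 CPM and the first inside it (36901088 to 36901689) 7.22 CPM. At the right edge no such block was cut, since the last member (37783015 to 37783498, 4.71 CPM) and the first region after the window (38116877 to 38117072, 3.13 CPM) were 333 kb apart. The last region inside the left block (36920251 to 36922258, 30.3 CPM) spanned the whole of Gm6756, a transcribed pseudogene, and ended 8027 bp before Pcdha1.

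Within the alpha array the regions at gene starts lay at a few neighbouring isoforms. The first 2.5 kb of a gene, counted from its start, served as a stand-in for its first exon, because the RefSeq table gives gene bodies without exons. On this measure, for which no share over all genes is given here, 5 of the 14 alpha genes were touched by a region. All 5 were adjacent, Pcdha6 to Pcdha10. Pcdha8 had 100% of these bases covered, Pcdha7 97.2% and Pcdha6 82.6%, by regions of 54.2, 44.0 and 36.1 CPM. Pcdha9 and Pcdha10 were touched by regions of only 191 and 205 bp, at 3.16 and 2.30 CPM, among the weakest of the window. Pcdha1 to Pcdha5, Pcdha11, Pcdha12 and the C-type genes Pcdhac1 and Pcdhac2 had none, and the nearest region to the start of Pcdhac2 was 26907 bp away. The 9 other regions of the array lay outside the first 2.5 kb of any gene and held 199 CPM. Among them was a region of 36.7 CPM (37073193 to 37075584), 14552 bp before Pcdhac1. Alpha gene bodies overlap one another, because each runs from its own start to the shared end, so a region past the early starts lies in several bodies at once and was assigned by starts here. First exons of neighbouring isoforms are similar in sequence, and how the authors placed reads that match several of them is not given in the sources used here, so that values at Pcdha6 to Pcdha10 are uncertain in this respect.

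The densest regions of the window lay between these exons. In the body of Gm36858, a pseudogene between the starts of Pcdha7 and Pcdha8, the region at 36979639 to 36981844 had 23.8 CPM per kb and that at 36988171 to 36989804 had 28.0, above 99.5% and 99.8% of all regions of the table respectively. A weaker region between them (36985224 to 36985725) had 12.0 CPM per kb. Nearly as dense as the first, at 23.7 CPM per kb, was a region between the alpha and beta arrays (37227540 to 37228923). The 6 regions from Pcdha6 to Pcdha8 together held 238 CPM in 27.0 kb, or 29.6% of the window's signal.

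**Figure D3:**
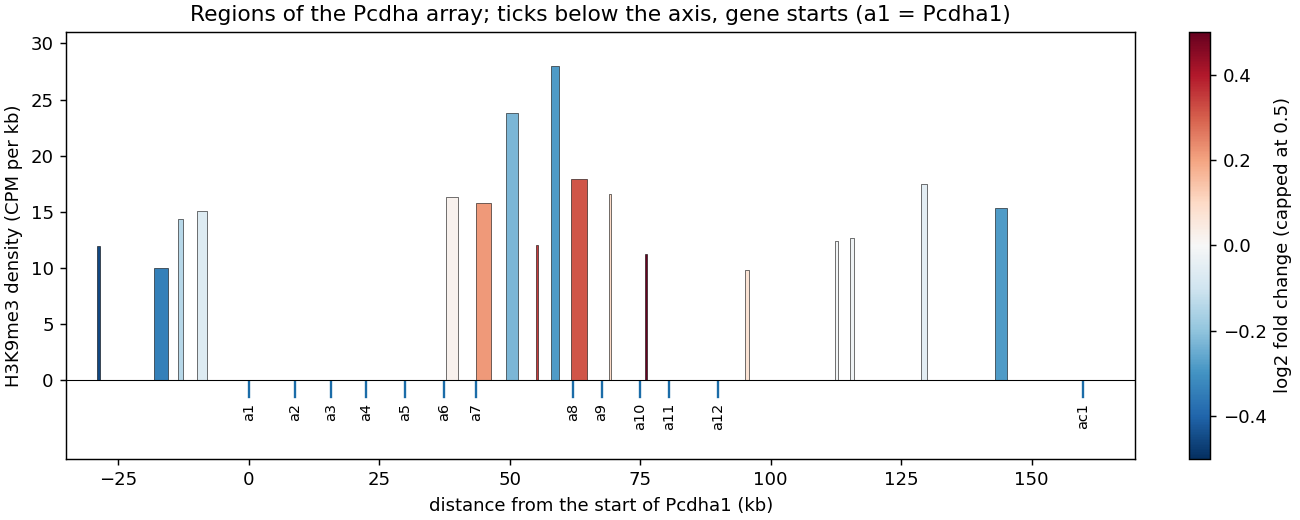
Density of H3K9me3 in CPM per kb for the regions around the alpha starts, against distance from the start of Pcdha1 in kb; box width is region width and colour the deposited log2 fold change. Boxes stand over the start of Pcdha8 and just past the starts of Pcdha6 (434 bp) and Pcdha7 (70 bp). The densest ones (23.8 and 28.0 CPM per kb) lie between Pcdha7 and Pcdha8, and none stands over the starts of Pcdha1 to Pcdha5.

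No beta or gamma gene, 0 of 22 in either array, had a region over its first 2.5 kb. For this measure the share over all genes is not given here. No body of the 22 beta genes (2340 to 5271 bp) overlapped a region, where among all 5229 protein-coding genes no longer than the longest of them 5.49% did. The nearest region to a beta start was 1243 bp before Pcdhb10 (37410187 to 37410431, 3.07 CPM). The median distance from a start to the nearest region was 6.45 kb for alpha, 14.7 kb for beta and 48.2 kb for gamma genes. Of the gamma starts, 19 lay in a single stretch of 164 kb without a region (37618520 to 37783014), which also holds the solute carrier gene Slc25a2 and Taf7, a subunit of the general transcription factor TFIID. The other 3, the C-type genes Pcdhgc3, Pcdhgc4 and Pcdhgc5, lay in the 333 kb stretch at the right edge. The 1 gamma region was 17435 bp past the start of Pcdhga12, between the variable starts and Pcdhgc3. These are statements about regions that the authors listed, and a mark too weak to be listed would not be seen. How reads that match several genes of an array were placed is not given in the sources used here. Whether this bears on the absence of regions was not tested.

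The strongest region of the window stood apart from all protocadherin starts. It spanned 8219 bp between the alpha and beta arrays (37234652 to 37242870), 22128 bp before Pcdhb1, and had 148 CPM, which is 18.3% of the window's signal and above 99.5% of all regions of the table. Of annotated genes it overlapped only Gm37013, Gm38666 and Gm38667, gene models that run from alpha starts to the end of the gamma array. The next in signal were the region over the start of Pcdha8 (54.2 CPM), a region in the interval between beta and gamma (37554409 to 37557002, 52.6 CPM), and both dense regions in Gm36858 (52.5 and 45.7 CPM). Over all regions of a part, the median was 18.9 CPM before Pcdha1, 16.7 in the alpha array, 5.53 in the beta array and 5.33 between beta and gamma. The 4 regions between alpha and beta had a median log2 CPM of 4.57.

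Between the genotypes, 0 of the 42 regions had an adjusted p-value (FDR) below 0.05 in the authors' deposited table, where 0.281% of all regions did. The submitters' processing notes name edgeR, and no other tool could be run on this table. An unadjusted p below 0.05 was found in 5 of the 42 and in 6 of the 38 flank regions. Over all regions the share was 4.74%. Such a p with a negative value was found in 4 of the 42, where 2.05% of all regions had one. All 5 were among the 14 regions with a log2 CPM of at least 4, and in regions of that signal genome-wide the share was 9.99%. The lowest FDR of the 42 was 0.166, and 38 had an FDR of 1.

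The region of smallest p lay in the interval between alpha and beta, beside the strongest region (37230031 to 37232084, 17.2 CPM). In the authors' deposited table its log2 fold change was -0.81 (derived standard error 0.24, p = 0.000824, FDR 0.166). It was a dilute region, with 8.39 CPM per kb over 2054 bp, at percentile 2.93 of all regions by density. With p-values adjusted over regions of at least 1000 bp alone its adjusted p was 0.0662, and the other alternatives gave 0.147 to 1. The 3 other regions of this interval were negative too. The authors' deposited table gives -0.12 (derived standard error 0.16) for the one before it, -0.17 (0.079, p = 0.0291, FDR 0.918) for the strongest region and -0.43 (0.43) for the one after it. Summed over the 4, the CPM of one genotype was 0.856 times that of the other.

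The other 3 regions with an unadjusted p below 0.05 were in the alpha and beta arrays. Over the start of Pcdha8 (36992002 to 36995029) the authors' deposited table has a log2 fold change of 0.31 (derived standard error 0.13, p = 0.0147, FDR 0.740). The dense region in Gm36858 nearest to it, 2663 bp before that start (36988171 to 36989804), went the other way in the authors' deposited table, at -0.28 (0.14, p = 0.0457, FDR 1). In the beta array, 10152 bp before Pcdhb15 (37462012 to 37463394, 22.9 CPM), the value in the authors' deposited table was -0.47 (0.21, p = 0.0241, FDR 0.852). Neighbours only a few kb apart thus had values of opposite sign, and none passed the authors' adjustment.

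**Figure D4:**
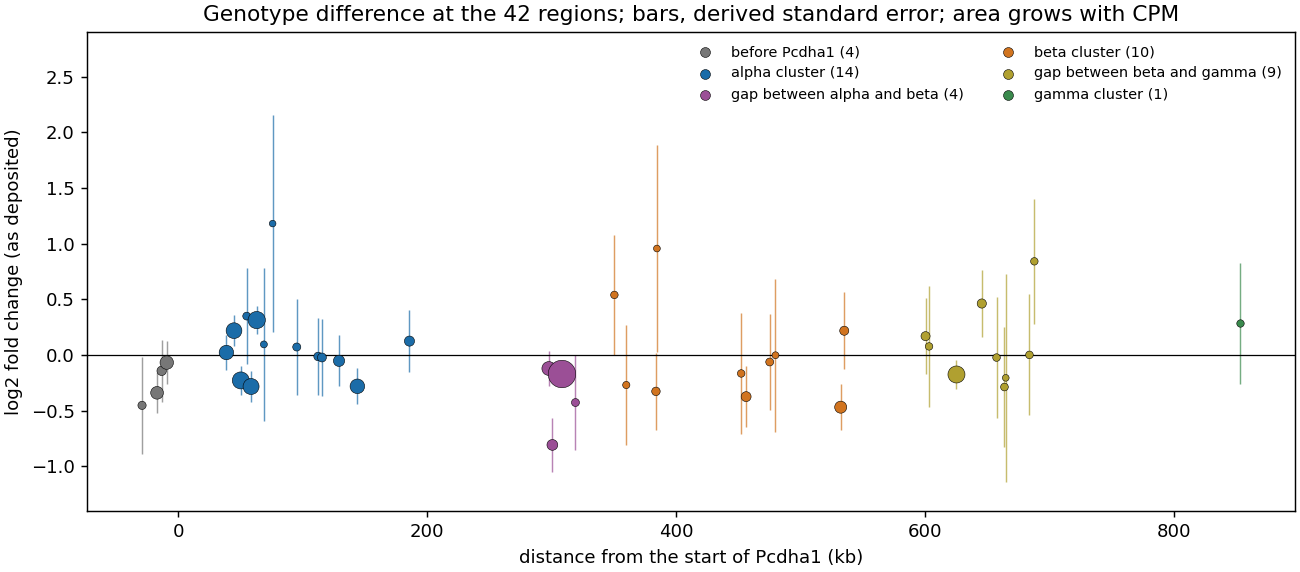
Deposited log2 fold change of the 42 regions against distance from the start of Pcdha1 in kb, with derived standard errors as bars, colour by part of the window and point area growing with CPM. The 4 regions before Pcdha1 and the 4 between alpha and beta are below 0, the alpha regions lie on both sides, and the 3 highest points (1.18, 0.96 and 0.84) have wide bars.

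The largest positive values were at weak regions. In the authors' deposited table they were 1.18 (derived standard error 0.98) in the first 2.5 kb of Pcdha10, at 2.30 CPM, then 0.96 (0.93) at 2.74 CPM, 5226 bp before Pcdhb5 (37314949 to 37315155), and 0.84 (0.56) at 4.83 CPM, 43256 bp before Pcdhga1 (37618029 to 37618519). The third most negative value, after those between alpha and beta and before Pcdhb15, was -0.45 (0.44) at the first member, 28596 bp before Pcdha1, in the authors' deposited table. Each of these 4 had an FDR of 1. Below a log2 CPM of 2, where 5 of the 42 regions lie, no region of the genome was called. At a log2 CPM of 2 to 3, with 14 of the 42, the smallest called change anywhere was 1.51, at 3 to 4, with 9, it was 1.00, at 4 to 5, with 5, it was 0.68, and at 5 to 6, with 8, it was 0.48. The 8 in the last of these classes lay between -0.28 and 0.31. At 4 to 5 the region at -0.81 (FDR 0.166) was beyond the smallest called change and still not called. At 7 to 8, with 1, the smallest called change was 0.24, and the strongest region of the window had -0.17.

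By part of the window, all 4 regions before Pcdha1 were negative, from -0.45 to -0.069 in the authors' deposited table, as were the 4 between alpha and beta. In the alpha array 8 were positive and 6 negative (median 0.047), in the beta array 3 and 7 (median -0.11), and between beta and gamma 5 and 4 (median 0.00032). The gamma region had 0.28 (derived standard error 0.54) in the authors' deposited table. Over all 42 the median was -0.038, with 25 negative and 17 positive and a middle 50% from -0.26 to 0.16. Over the whole table the median was -0.0058, with 50.8% negative. With each region weighted by its signal, the sum over the window had a log2 ratio of -0.094, and -0.077 without the strongest region. Members with a log2 CPM of at least 4 were negative in 11 of 14 cases, with a median of -0.17. Flank regions of that signal were negative in 15 of 18 cases, also with a median of -0.17. All regions of that signal were negative in 59.8% of cases, with a median of -0.047.

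**Figure D5:**
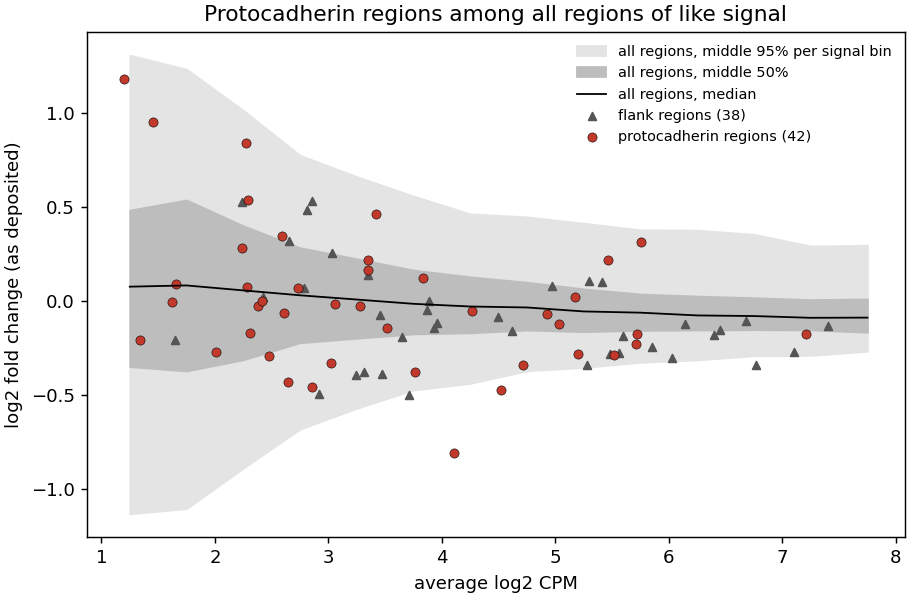
Deposited log2 fold change against average log2 CPM for the 42 protocadherin regions (red) and the 38 flank regions (grey triangles), over bands that hold the middle 50% and 95% of all regions in signal bins of 0.5. Of the 42, 40 lie inside the 95% band, and the 2 below it are the regions at -0.81 and -0.47.

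Set among regions of like signal, 22 of the 42 lay within the middle 50% of their signal bin, 12 below it and 8 above it. The flanks differed from each other. In the upstream flank 20 of 23 regions were negative (median -0.18), and in the downstream flank 6 of 15 (median 0.023). The members lay between them, 0.099 above the median of both flanks together. This difference was 0.040 with flanks of 2 Mb and -0.0072 against the rest of chromosome 18, and no test over samples could be made of it. In the block from Zmat2 to Pcdha1, 22 of the 23 regions were negative, with a median of -0.24. Outside this block the upstream flank had 2 positive and 2 negative regions. The region of lowest FDR in that block (36821575 to 36826015, 109 CPM) had a log2 fold change of -0.34 (0.090, FDR 0.0565), per the authors' deposited table.

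Of 12 protocadherin genes outside the cluster 6 had a region in the body or within 5 kb, 35 regions in all, of which 27 were at Pcdh15, a very long gene for a protein of the hair bundle of the inner ear. None was called and 1 had an unadjusted p below 0.05, in Pcdh15 (chromosome 10, 74494053 to 74495048), for which the authors' deposited table has -0.77 (0.34, FDR 0.852). The median of the 35 was -0.011. Both of those that lie in the downstream flank of the cluster were nearly bare, with 0 regions at Pcdh1 and 1 at Pcdh12 (38267000 to 38267500, 4.72 CPM), which has 0.53 (0.52) in the authors' deposited table. Of the 23 protein-coding genes wholly in the upstream flank 1 had a region, and of the 12 in the downstream flank 3 had one. Among those 3, Dele1 and Pcdh12 were counted through the same region (38267000 to 38267500). For the counts of genes in this paragraph, no share over all genes is given here.

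Genes that act on the chromatin of the cluster or on H3K9me3 itself were looked at in the same way. Of 27 such genes 9 had a region in the body or within 5 kb, and no such share over all genes is given here. Ctcf, which encodes the factor that loops protocadherin promoters, Rad21, a cohesin subunit, Setdb1, an H3K9 methyltransferase, Trim28, its corepressor partner, Wiz, a partner of the G9a methyltransferase complex, and Dnmt3b, a DNA methyltransferase, had 0. The 9 with a region were Smc3, Nipbl and Ehmt1 with 1 each, Stag1, Atf7ip, Cbx3 and Dnmt3a with 2 each, and Smchd1 and Tet3 with 3 each. The strongest region at these genes had 57.7 CPM, at Atf7ip. The 17 regions at these 9 genes had 11 positive and 6 negative values, 0 calls and 0 with an unadjusted p below 0.05. Smchd1, a structural maintenance of chromosomes protein known to act on the cluster, had 3 regions, and that of smallest p has 0.32 (0.28, FDR 1) in the authors' deposited table.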

How the data were processed

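Per the labels, H3K9me3 immunoprecipitates and input DNA of both genotypes were sequenced as paired reads of 75 nt. Of tools, edgeR, bedtools 2.25.0, HOMER 4.8 and Bowtie2 2.2.6 are listed, with the build mm10 and with no role or order, per the submitters' processing notes. The authors deposited 1 table with, per the file headers, each region's p-value, FDR, log2 fold change and average log2 CPM. It has 0 columns of single libraries, so depth per library, spread between replicates and any test over samples were not analysed here. Its FDR differed from a Benjamini-Hochberg adjustment of its p-values by at most 3.2e-05.

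Members were taken by region start. A derived standard error is the absolute log2 fold change over the normal deviate of the 2-sided p, where that deviate was at least 1, and otherwise the median of regions within the same log2 CPM bin of 0.5. Summed ratios split each region's CPM by its fold change. Gene positions are those of the RefSeq table, all 58 symbols matched, and starts are the lower coordinates, since the arrays run in that direction. Named regions were those with p below 0.05, the 5 of highest CPM, the 3 highest and 3 lowest fold changes and the 3 widest. Others, among them first-exon and edge regions, were picked once their values were known. The members and lists were chosen with earlier results of these data known. The script was tested on simulated data. Python 3.11.15, pandas 2.3.3 and scipy 1.17.1 were used. No sequence is printed.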

Additional observations from a re-analysis of the deposited data

How the results depend on the processing

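The count of 0 called regions in the window was 0 under all 5 alternatives run (FDR below 0.01, Holm adjustment, and p-values adjusted again without chromosomes 11 and 16, without regions below a log2 CPM of 2 or without regions under 1000 bp). The median log2 fold change of -0.038 was -0.17 for regions of at least 1000 bp and 0.0096 for the 20 regions in or within 5 kb of a clustered protocadherin gene. The alternative weighted by CPM, -0.094, is the log2 ratio of summed CPM and not a median. The difference of the median from the flanks of 0.099 was 0.040 with flanks of 2 Mb, -0.0072 against the rest of chromosome 18 and 0.039 relative to regions of like signal. The signs of both small medians therefore depended on which regions were taken. The ratio of regions per Mb, 2.11 in the window over the flanks, ranged from 1.43 (flanks of 500 kb) to 2.67 (downstream flank alone, added after seeing the data). The cause of these shifts was not tested. By other measures the window was close to both flanks together. It had 4.93% of sequence covered against 4.39%, and 0.767 CPM per kb of sequence against 0.709. Among added alternatives, the summed log2 ratio of -0.094 was -0.051 without the interval between alpha and beta. It was -0.0064 for the 20 regions near genes. The 5 genes with a region over their first 2.5 kb were 4 with 1 kb and 6 with 5 kb. The sixth was the beta gene Pcdhb9, whose body of 3055 bp is shorter than 5 kb. Its region starts at 37405344, past the end of that body at 37403909. No paired analysis was possible because the table has no values of single libraries, and for the same reason no library could be left out in turn. Of the 28 regions of the window below a log2 CPM of 4, 0 had an unadjusted p below 0.05, where 2.86% of all regions of that signal had one.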

Other observations

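The signs of regions over first exons of the alpha array were looked at after their values were seen, and no test of them was made. The 5 regions over the first 2.5 kb of Pcdha6 to Pcdha10 were all positive in the authors' deposited table, at 0.022 (derived standard error 0.16), 0.22 (0.14), 0.31 (0.13), 0.095 (0.69) and 1.18 (0.98) in gene order, with a log2 ratio of summed CPM of 0.22. The 9 other regions of the alpha array had 3 positive and 6 negative values, the highest of them 0.35 between the starts of Pcdha7 and Pcdha8 (derived standard error 0.43), with a log2 ratio of summed CPM of -0.16. Of the 5, 1 had an unadjusted p below 0.05, and the values at Pcdha9 and Pcdha10 rest on 3.16 and 2.30 CPM.

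The region that spans Gm6756 had 15.1 CPM per kb, where the median was 14.4 over the block from Zmat2 to Pcdha1 in which it lies. Gm36858 holds the regions of 23.8 and 28.0 CPM per kb, where the median of the window was 12.7 and that of all regions 11.3. Other regions that overlap it had 12.0 and 15.8 CPM per kb, and a region outside it, between the alpha and beta arrays, had 23.7.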
